A study of Homo sapiens with 2 samples.

Results

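The YBX1 sites that were annotated as intronic or as noncoding RNA made up 282 of the 2054 binding sites in the deposited list. They were taken as every site whose class, as given by the authors' annotation, was intron (164 sites) or non-coding (118 sites). Both replicates were photoactivatable-ribonucleoside-enhanced crosslinking and immunoprecipitation (PAR-CLIP) libraries of YBX1 from HEK293, a human embryonic kidney cell line. The cells were T-REx HEK293 Flp-In, per the study's methods, with stable overexpression of FLAG/HA-tagged YBX1, and were fed 4-thiouridine, irradiated with UV light, lysed and digested with RNase T1. For the precipitation the methods give an anti-FLAG antibody, whereas the labels give D2A11, raised against YBX1. All libraries carried the tagged protein, and no control library was compared here. The 2 replicates were pooled into 1 list without a read count, a conversion rate or a score per site, so that the depth behind each site is unknown, no spread between replicates could be given, and intervals below cover the counting of sites only.

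YBX1 is a cold shock domain protein that packages mRNA, mostly in the cytoplasm, and that binds short C- and A-containing stretches of single-stranded RNA. Introns are removed in the nucleus by the spliceosome, and long noncoding RNAs such as MALAT1 act as RNA without being translated. The authors' annotation tool names each site after 1 transcript over its position, without regard to the strand of the site: the intron class names an intron of that transcript, and the non-coding class an exon of a transcript with a RefSeq noncoding accession. RNase T1 cuts RNA after G, so that a fragment which it has cut to completion follows a G, ends in G and holds no other G; such a site is called RNase T1 type here.

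Sites of the non-coding class are shown first, because the same protein-coding 3′UTR can appear in this class through a noncoding splice form. Coordinates are hg38, each sequence runs 5′ to 3′ on the strand of the site with T for U, and capitals mark every G.
NR1D2 3′UTR, chr3:23978125-23978147, plus strand: tccacaccaaccatattattcaG
NR1D2 3′UTR, chr3:23979179-23979200, plus strand: ttaaaccctctcattattaaaG
NR1D2 3′UTR, chr3:23980128-23980148, plus strand: ctttcatatctacatttcaaG
PAFAH1B2 3′UTR, chr11:117169175-117169200, plus strand: acactacctttatcccatcattttaG
SRSF3 exon of a decay transcript, chr6:36600003-36600028, plus strand: ccttctctccaaccttaaccaaatcG
SRSF3 3′UTR, chr6:36602270-36602290, plus strand: ataataaacctctaaacctGc
MALAT1, chr11:65505792-65505811, plus strand: actaaaaccaacttaaacca
NORAD, chr20:36046394-36046419, minus strand: ctttacGaatGGGGtGacaacttatG
NORAD, chr20:36049209-36049229, minus strand: GacaaattaactccttacttG
NORAD, chr20:36050150-36050178, minus strand: ctctcaactccaccccaaccttttaataG
TUG1, chr22:30973519-30973545, plus strand: tccccttacctaacaGcatctcacaaG
SNHG21, chr15:82750795-82750816, plus strand: cttacatttctccacctcattt

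The intron-class sites shown next hold the 3 sites of 1 ERC1 intron, 3 of the sites nearest to a splice site, 1 long noncoding RNA, 3 processed pseudogenes that lie in introns of other genes on the other strand, and 2 sites with no gene on their own strand, which are 2 of those that matched a human stable RNA; the other G-rich sites without RNase T1 ends are not shown.
ERC1 intron, chr12:1200856-1200880, plus strand: cccacatttccttttcttaccattG
ERC1 intron, chr12:1201288-1201311, plus strand: taatataaaatactttttactatG
ERC1 intron, chr12:1203055-1203076, plus strand: acctacattcttactctttttG
MFSD11 intron, chr17:76745445-76745473, plus strand: tctttctctccataccacttttccaacaG
SMC5 intron, chr9:70264500-70264522, plus strand: taacatcaatttctacacctcaG
CCNG1 intron, chr5:163443549-163443571, plus strand: ttaacatttaatacatctacatG
JPX, chrX:74008625-74008648, plus strand: taatcctaatactcctaccaacaG
RPL13P6, opposite to CDC42BPB, chr14:103041826-103041849, plus strand: ctccaacctcaccctctaccccaG
BTF3L4P1, opposite to CXADR, chr21:17518777-17518800, minus strand: ttattcacttcaacaatcccaaaG
HNRNPDLP2, opposite to CCDC148, chr2:158425276-158425297, plus strand: caatcaccaaaacaatcaccaG
opposite to CTNND2, chr5:11725587-11725604, plus strand: GGttGtGtaGtGtaGtGG
opposite to PPEF2, chr4:75886038-75886065, plus strand: acaGGttaGttttaccctactGatGatc

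The intron sequences of ERC1, MFSD11, SMC5 and CCNG1 and the pseudogene sequence of BTF3L4P1 were bounded by G on both sides and had no G inside, like those of NR1D2, PAFAH1B2 and the SRSF3 decay exon. The CTNND2 and PPEF2 antisense sequences held 8 and 5 inner G and neither was of the RNase T1 type.

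Most sites of the non-coding class lay in mRNA. With GENCODE release 44 and the strand of the site, 93 of 118 sites (78.8%, Wilson 95% interval 70.6 to 85.2) had their midpoint in an mRNA exon: 76 in a 3′UTR, 15 in coding sequence and 2 in a 5′UTR. Exons of long noncoding RNA genes held 13 sites (11.02%, 6.55 to 17.9). A further 3 sites lay in exons of pseudogenes, 2 in exons of nonsense-mediated decay transcripts and 3 in other noncoding transcripts of protein-coding genes, and no site lay in an intron. Of the transcripts named by the authors, 89 of 118 belonged to a protein-coding gene in RefSeq, 16 to a long noncoding RNA gene and 4 to a transcribed pseudogene, and 9 were not matched. In 96 of 118 sites the named part was the last exon of that transcript, and 72 sites lay in the 3′UTR of the gene's representative MANE Select transcript.

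**Figure D1:**
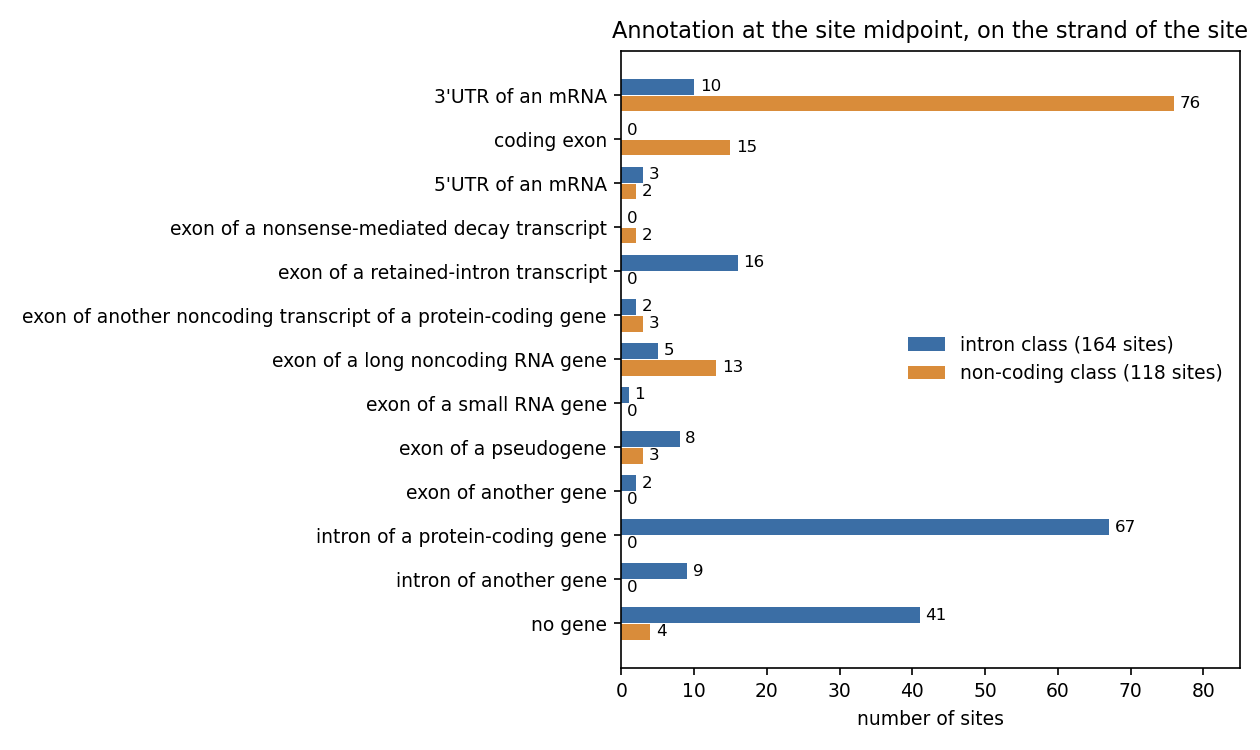
Number of sites (x axis) by GENCODE annotation at the site's midpoint on the site's own strand (y axis), for the intron class (blue, 164 sites) and the non-coding class (orange, 118 sites). The non-coding class is led by 3′UTRs (76 sites), the intron class by introns of protein-coding genes (67) and by sites with no gene on their strand (41).

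Intron-class sites were spread over more kinds of RNA. An intron on the site's own strand held 76 of 164 midpoints (46.3%, 38.9 to 54.0), of which 67 were in protein-coding genes. An annotated exon on the own strand held 47 sites (28.7%, 22.29 to 36.01). The other 41 sites (25%, 19 to 32.1) had no gene on their own strand. The exons were those of retained-intron transcripts (16 sites), 3′UTRs of other mRNAs or splice forms (10), pseudogenes (8), long noncoding RNA genes (5), 5′UTRs (3), other noncoding transcripts (2), unclassified genes (2) and a small RNA gene (1). The 3′UTR group held both sites of RO60, which encodes the Ro protein that binds Y RNAs, and sites of ABCC9, PCDH9, HAPSTR1, ZSCAN12, HOXB3 and IGFBP3.

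The classes differed in strand. A gene on the own strand was found for 123 of 164 intron-class and 114 of 118 non-coding-class sites, a difference of -21.6 percentage points (95% interval -29.1 to -13.8; two-sided Fisher's exact test, Benjamini-Hochberg adjusted p = 5.81e-07 over 6 planned comparisons). Both classes were assigned from annotated genes without regard to strand, so that this share may depend in part on the assignment. Because the authors' classes themselves use annotated introns and exons, the shares in an annotated exon (28.7% against 96.6%) and in an mRNA exon (7.93% against 78.8%) are given as a description only. Against the transcript that the authors named, 55 of 164 intron-class sites lay on the opposite strand, 106 on the same strand and 3 could not be resolved. In the non-coding class the corresponding numbers were 6, 101 and 11. Of the intron-class sites, 100 had genes on their own strand only, 23 on both strands, 40 on the opposite strand only and 1 on neither. In the 3′UTR and exon classes together, 23 of 1288 sites (1.79%) had no gene on their own strand.

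Transcripts of SR splicing factors carried sites of the non-coding class. The list of SR proteins with the TRA2 genes and SON, which set splice site choice, held 8 members in 5 of 15 genes, all in the non-coding class: SRSF3 had 3 sites, SRSF1 had 2, and SRSF6, SRSF9 and SRSF10 had 1 each. The SRSF3 site at the start of the series of 3 lay in an exon that GENCODE gives to a nonsense-mediated decay transcript, and the other 2 lay in the 3′UTR, so that the sites spanned 2506 nt. Both SRSF1 sites lay within 96 nt of each other in a 3′UTR, and SRSF1 also held 1 site of another class. For comparison, 169 of 20020 protein-coding genes in GENCODE had a member (0.844%), and 169 of the 1270 with a site of any class on their strand (13.3%). Of the 15 SR genes 7 had a site of any class, and of 29 hnRNP genes 7 had one and 0 had a member, although the pseudogene HNRNPDLP2 did. These lists were small and were not tested. PSPC1, which encodes a paraspeckle protein, held the other site in an exon of a nonsense-mediated decay transcript.

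Several genes carried repeated sites. The members with a gene on their own strand fell in 207 genes, of which 188 had 1 member and 19 had 2 or more. NR1D2, a heme-binding nuclear receptor of the circadian clock, had 4 sites over 2024 nt of its 3′UTR. DESI2, a desumoylating peptidase, had 4 over 1767 nt, and PAFAH1B2, a catalytic subunit of platelet-activating factor acetylhydrolase, had 4 over 1588 nt. All 4 sites of NR1D2 and of PAFAH1B2 and 3 of 4 in DESI2 were of the RNase T1 type, against 83 of 118 over the non-coding class. The type held for 2 of 3 sites in TUBB and for 1 of 3 each in HDAC2, NORAD and SRSF3. It held for 2 of 2 in CMPK1, MED21 and POP4, 1 of 2 in CNOT1, SRSF1 and TUG1, and 0 of 2 in ZNF529. HDAC2, a histone deacetylase, had 3 sites in its 3′UTR, and TUBB, a β-tubulin, had 2 in its 3′UTR and 1 in a 5′UTR. Pairs were found in CMPK1, MED21 and ZNF529, in POP4, a subunit of RNase P, and in CNOT1, the scaffold of the CCR4-NOT deadenylase, whose coding-sequence sites spanned 25037 nt of the genome. PSMA6 was the 1 gene with a member in both classes. Of the genes with members, 14 of 89 in the non-coding class and 11 of 119 in the intron class also held a site of another class. For DESI2, NR1D2 and PAFAH1B2 every site in the list was counted as non-coding.

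Exons of long noncoding RNA genes held 18 sites over both classes. NORAD, an abundant RNA that binds Pumilio proteins, had 3 sites over 3785 nt. The sequences of 2 of them, at 36049209 and 36050150, occurred 7 and 5 times in the genome, so that their reads could have come from other copies. MALAT1, a nuclear speckle RNA, had 1 site that followed a G but ended in A. TUG1 had 2 sites, which GENCODE 44 places in a 3′UTR because it lists a coding transcript for the gene, and the sequence of 1 of them occurred 7 times in the genome. JPX, a long noncoding RNA gene of the X inactivation centre, held an intron-class site, and so did ZNF790-AS1 and the unnamed genes ENSG00000271976, ENSG00000270681 and ENSG00000266397. The non-coding class further held sites in SNHG21, SVIL-AS1, LINC02381, LINC00324, PEX5L-AS2, PARM1-AS1 and ENSG00000290890, and 2 sites in 1 more gene that are counted but not described. Of 13 nuclear or abundant long noncoding RNAs listed for this work, 4 (MALAT1, NORAD, TUG1 and JPX) had a member. These 4 were also all of the 13 with a site of any class. Over all 18842 long noncoding RNA genes 23 had a member (0.122%), out of 59 with a site of any class (38.98%). Which of these genes the cells express was not examined. Among 39 snoRNA host genes 7 had a site and 2 had a member, SNHG21 and TAF1D, the latter in an intron. Over all 61228 genes 207 had a member (0.338%), out of 1376 with a site of any class (15.04%).

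Pseudogenes inside introns of other genes accounted for 8 intron-class sites. Each site, extended by 40 nt on both sides, was compared with GENCODE transcripts of other loci. A match in a protein-coding gene was taken before any other, so that closer matches in other pseudogenes were not looked for. So chosen, RPL13P6 matched RPL13 at 91.3% identity, BTF3L4P1 matched BTF3L4 at 97.1%, HNRNPDLP2 matched HNRNPDL at 93.1% and ENSG00000248288 matched RPL5 at 94.9%. FTH1P26 matched FTH1 at 87.1%, PSMC2P2 matched PSMC2 at 88.5%, MTND5P3 matched the mitochondrial MT-ND5 at 80.5% and RPS16P3 matched RPS16 at 77.6%. The ribosomal proteins RPL13, RPL5 and RPS16, the ferritin heavy chain FTH1 and the proteasome ATPase PSMC2 are made in most cells from abundant mRNAs. The sequence of each of these 8 sites itself occurred once in the genome. In 4 of the 8 (RPL13P6, BTF3L4P1, HNRNPDLP2 and ENSG00000248288) the gene whose intron gave the class lay on the opposite strand. Close matches in mRNAs, with limits of 85% identity and 80% cover, were not particular to this class. The non-coding class had them for 2 of 93 sites in mRNA exons and 4 of 21 in other exons. In the intron class they were found for 9 of 33 sites in other exons and 1 of 41 with no gene on their strand. Whether reads of the parent mRNAs contributed was not tested.

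Most sites in introns on their own strand lay over 500 nt from a splice site. Distances were taken to the ends of the shortest annotated intron over the midpoint. They were not compared with random positions in the same introns, so that nearness to or avoidance of splice sites was not tested. Over the 74 such sites of at most 300 nt, the midpoint lay a median of 2046 nt from the nearest splice site (lowest 20, quartiles 931 and 6621, highest 105793) in introns of a median length of 12189 nt. Within 500 nt of a splice site were 13 sites, and within 100 nt were 3: MFSD11 at 20 nt, SMC5 at 66 nt and PRKDC, the catalytic subunit of DNA-dependent protein kinase, at 77 nt. CCNG1, which encodes cyclin G1, followed at 114 nt. The farthest were RPS6KA2 at 105793 nt, GRM5P1 at 98489 nt, SCFD2 at 64890 nt, SYNPO2 at 62395 nt and ENSG00000229846 at 50270 nt. The nearer splice site was the 5′ one for 39 of 74 (52.7%, 41.5 to 63.7). ERC1, a scaffold protein of the active zone and cell cortex, was the only gene with more than 1 such site: its 3 sites lay within 2221 nt of 1 intron of 14448 nt, and a further site lay on the opposite strand of the gene.

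**Figure D2:**
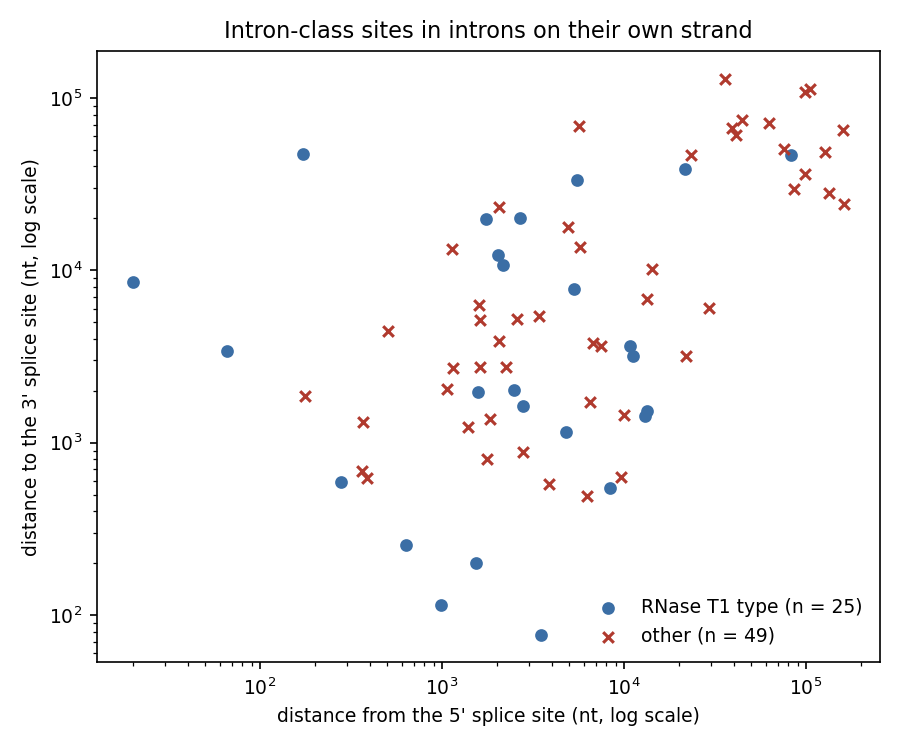
Distance of each site's midpoint from the 5′ splice site (x axis, nt, log scale) and to the 3′ splice site (y axis, nt, log scale) for the 74 intron-class sites of at most 300 nt in an intron on their own strand. Circles are sites of the RNase T1 type (25) and crosses the others (49); 2 of the 18 sites beyond 10000 nt from either end are circles, against 8 of the 13 sites within 500 nt of one end.

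The ends of the sites separated the classes. The RNase T1 type held for 45 of 161 intron-class sites of at most 300 nt (27.95%, 21.6 to 35.3) and for 83 of 118 non-coding-class sites (70.3%, 61.6 to 77.8), a difference of -42.4 points (-52.2 to -30.9; two-sided Fisher's exact test, adjusted p = 5.92e-12 over 6 comparisons that were chosen after these values were seen). Among the 3′UTR and exon classes it held for 931 of 1287 (72.3%), and the intron class differed from them by -44.4 points (-51.2 to -36.6; Fisher's exact test, adjusted p = 7.52e-27). Among sites wider than the median that difference was -17.1 points (-29.7 to -4.98; Fisher's exact test, adjusted p = 0.0364). The non-coding class differed from them by -2.0 points (-11.1 to 5.90; Fisher's exact test, adjusted p = 0.668). Width moved with the result: of intron-class sites of at most 22 nt, the median width of all sites, 10 of 97 were of the RNase T1 type (10.3%), and of wider ones 35 of 64 (54.7%), whereas the non-coding class gave 70.1% and 70.6%. Among the wider sites alone the 2 classes differed by -15.9 points (-32.1 to 1.95; Fisher's exact test, adjusted p = 0.174).

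Within the intron class the ends differed by strand over all sites, but not past the threshold in some narrower sets. Sites in an intron on their own strand were of the RNase T1 type in 25 of 74 cases (33.8%, 24.05 to 45.1), and sites with no gene on that strand in 5 of 41 (12.2%, 5.32 to 25.5), a difference of 21.6 points (5.07 to 34.8; two-sided Fisher's exact test, adjusted p = 0.0214). The call did not hold among sites wider than the median, where the difference was 12.9 points (-17.4 to 38.6; Fisher's exact test, adjusted p = 0.631), nor with only sequences that occur once in the genome, where it was 20.4 points (Fisher's exact test, adjusted p = 0.0583). It held with 1 site per gene (19.7 points, Fisher's exact test, adjusted p = 0.0351) and without matches to a stable RNA (22.4 points, Fisher's exact test, adjusted p = 0.0274). This comparison by strand was also chosen after the values were seen. The sites in mRNA exons gave 7 of 13 and those in other exons 8 of 33. Inner G, counted before the last base, had a median of 1.5 per site in own-strand introns and 4 where no gene lay on the strand, with 13 as the highest number, in HFM1. In non-coding-class mRNA exons and in the 3′UTR and exon classes the median was 0. Neither end was a G-bounded one in 20 of 41 intron-class sites without a gene on their strand (48.8%), in 21 of 74 in own-strand introns (28.4%) and in 1 of 93 non-coding-class sites in mRNA exons (1.08%). Split at 2000 nt from the nearest splice site, 15 of 35 nearer own-strand intron sites (42.9%, 27.98 to 59.1) and 10 of 39 farther ones (25.6%, 14.6 to 41.1) were of the RNase T1 type, with overlapping intervals. At the extremes, 8 of 13 own-strand intron sites within 500 nt of a splice site were of the RNase T1 type (61.5%, 35.5 to 82.3), as were 2 of 18 beyond 10000 nt (11.1%, 3.10 to 32.8). No test was made of these splits.

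**Figure D3:**
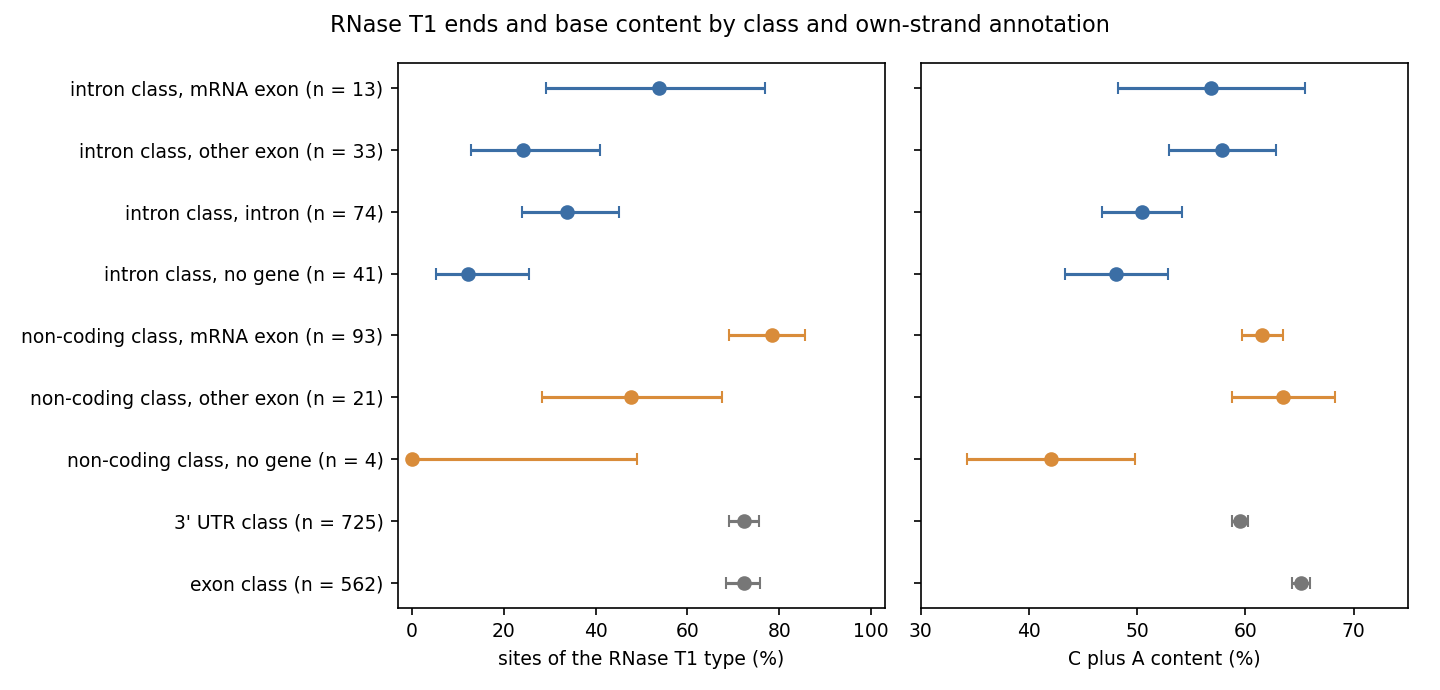
Left, percent of sites of the RNase T1 type (follow a G, end in G, no other G) with Wilson 95% intervals; right, mean C plus A content in percent with 95% intervals of the mean over sites. Rows are the intron class (blue) and non-coding class (orange) split by what lies on the site's own strand, and the 3′UTR and exon classes (grey); non-coding-class sites in mRNA exons (78.5%) stand with the grey rows (72.4% and 72.2%), and intron-class sites with no gene on their strand (12.2%) lie lowest among the intron-class rows.

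Within the intron class, mean C plus A content was lowest outside exons. It was 50.4% in own-strand introns (95% interval 46.7 to 54.1), 48.1% where no gene lay on the strand (43.3 to 52.8), 56.8% in intron-class sites in mRNA exons (48.2 to 65.5, 13 sites) and 57.9% in those in other exons (52.95 to 62.8, 33 sites). The intervals for the mRNA exons and for the other exons both overlapped that of own-strand introns, and no test was made. The mean was 61.6% for non-coding-class sites in mRNA exons (59.7 to 63.5) and 61.98% over the 3′UTR and exon classes (61.4 to 62.5). Each site was also set against a window of its own width 100 nt away in the same intron or exon. G-poor fragments are richer in every other base, and these windows were not matched for G. Intron-class sites held 3.80 points more C than their windows (95% interval 1.57 to 6.02, 157 pairs), and C plus A differed by 2.38 points (-0.78 to 5.53). By strand, C was 3.49 points higher in own-strand introns (0.56 to 6.42, 74 pairs), whereas sites with no gene on their strand differed by -0.78 points in C (-4.97 to 3.41, 38 pairs), by -4.90 in C plus A (-11.3 to 1.52) and by 2.23 in G (-2.42 to 6.89), all with intervals that include 0. Non-coding-class sites held 9.36 points more C (6.73 to 11.99, 107 pairs), 4.68 points more A (2.12 to 7.24) and differed by -15.2 points in G (-17.5 to -12.9). Taken among A, C and U only, C plus A differed from these windows by 5.12 points in the non-coding class (1.93 to 8.32). In the intron class that value was -0.11 points (-3.18 to 2.96).

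Windows that RNase T1 could also have released gave a narrower comparison. They followed a G, ended in G even where the site did not, held as many inner G as the site and were the nearest such windows in the same intron or exon. Against them, C was 3.88 points higher in intron-class sites (1.55 to 6.21, 135 pairs), A differed by -2.996 points (-5.62 to -0.37) and C plus A by 0.89 points (-1.70 to 3.47). C was 5.96 points higher in non-coding-class sites (2.65 to 9.26, 62 pairs), while U differed by -6.38 points in the latter (-10.2 to -2.51). A differed there by 0.85 points (-3.22 to 4.93), an interval that includes 0. Restricted to sites of the RNase T1 type on the same kind of window, intron-class sites held 10.4 points more C (5.76 to 15.1, 30 pairs) and differed by -9.61 points in U (-15.4 to -3.80). Non-coding-class sites of that type held 6.72 points more C (2.62 to 10.8, 42 pairs). This restriction was chosen after the values were seen. The difference between the classes in these values was not tested.

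**Figure D4:**
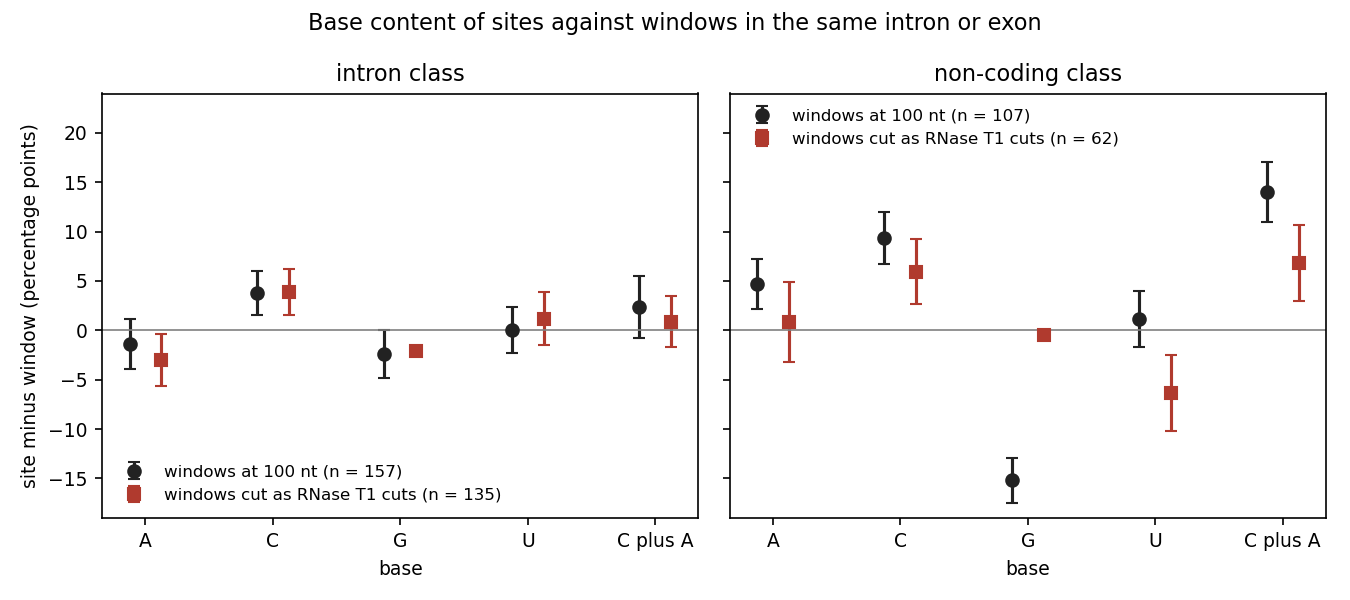
Base content of sites minus equally wide windows from the same intron or exon (y axis, percentage points; points are means over pairs, bars 95% intervals) for each base (x axis), in the intron class (left) and the non-coding class (right). Black circles use windows 100 nt away and red squares windows cut as RNase T1 cuts; C lies above 0 in all 4 series, and G reaches -15.2 points only for the non-coding class against windows 100 nt away.

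Single tetramers separated the non-coding class from its windows 100 nt away, but none passed the test against windows cut as RNase T1 cuts. Most sites of this class were of the RNase T1 type, without inner G by definition, whereas the windows 100 nt away held 20.98% G. Fewer tetramers with G in the sites were therefore set in advance, and this comparison cannot show a sequence preference of YBX1. In the exact McNemar test over 256 tetramers at an adjusted p of at most 0.05, 31 tetramers (12.1% of those tested) were more frequent in non-coding-class sites and 56 (21.9%) less frequent, and all 56 contained G. The largest excess was that of TAAC, found in 28.97% of sites and 2.80% of windows. The next by excess, ACAA, was found in 30.8% and 6.54%, and CAAC in 29.9% and 5.61%. TCCA followed with 29.9% of sites and 6.54% of windows, then ACTA with 29.9% and 7.48%, and TACT with 28.97% and 7.48%. CTCC was found in 22.4% of sites and 1.87% of windows, CCAA in 26.2% and 5.61%, TACA in 27.1% and 6.54%, and CTAC in 23.4% and 3.74%. In the intron class, 0 tetramers (0% in each direction) passed the same test, and 40 had an unadjusted p under 0.05, of which 19 were more frequent in sites. The largest excess there was that of AACA, found in 23.6% of sites and 9.55% of windows (exact McNemar test, adjusted p = 0.0763). CAAC, among the leading tetramers of both classes, was found in 13.4% of intron-class sites and 2.55% of their windows (exact McNemar test, adjusted p = 0.0763), and TAAC in 19.1% and 7.64% (adjusted p = 0.0832 in the same exact test). Against windows cut as RNase T1 cuts, 0 tetramers passed in the non-coding class (0% in each direction, 13 with an unadjusted p under 0.05). That comparison had 62 pairs, against 107 with windows 100 nt away. Its largest excess was that of CAAC, found in 30.6% of sites and 6.45% of windows (exact McNemar test, adjusted p = 0.132). TAAC, the leading tetramer with windows 100 nt away, was found in 27.4% and 16.1%. In the intron class, with 135 pairs against 157, 0 tetramers were more frequent (0%) and 1 was less frequent (0.391%).

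A difference in the share of repeated sequences was not detectable between the classes. An identical copy elsewhere was found for 11 of 161 intron-class sites (6.83%, 3.86 to 11.8) and 10 of 118 non-coding-class sites (8.47%, 4.67 to 14.9), a difference of -1.64 points (-8.72 to 4.63; two-sided Fisher's exact test, adjusted p = 0.859). Against the 3′UTR and exon classes, where 97 of 1287 sites had such a copy (92 of 725 and 5 of 562), the differences were -0.70 points for the intron class (-4.07 to 4.45; Fisher's exact test, adjusted p = 0.874) and 0.94 points for the non-coding class (-3.18 to 7.50; Fisher's exact test, adjusted p = 0.859). Repeated sequences made up 12.7% of the 3′UTR class and 0.89% of the exon class, and both classes described here lay between them. A small difference from the pooled classes therefore does not show likeness to either, and no test was made against each alone. The site on the strand opposite to GAB4 had the most copies, 907. For none of these 11 and 10 sites did an other copy lie in an mRNA exon.

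A few members matched stable RNAs. Within 2 edits of rRNA, tRNA, small RNA or mitochondrial RNA were 8 of 161 intron-class sites (4.97%, 2.54 to 9.50) and 2 of 118 non-coding-class sites (1.69%), against 5 of 1287 in the 3′UTR and exon classes (0.389%; intron class 4.58 points higher, 2.10 to 9.11; two-sided Fisher's exact test, adjusted p = 3.13e-05). Among sites wider than the median the difference was 2.96 points (Fisher's exact test, adjusted p = 0.0773). The comparison of stable RNA matches was also chosen after the values were seen. Their reverse complements, searched as a background, gave 0 of 161, 1 of 118 and 6 of 1287. The intron-class matches were to 28S rRNA in HFM1, ZNF599, MALRD1 and opposite to PPEF2, to tRNAs in IGFBP3 (TRF-GAA6-1, no edit) and opposite to CTNND2 (TRV-CAC2-1), to MT-ND5 in MTND5P3 and to RNY3 in a Y RNA gene opposite to PHACTR4. The heptamer CAGTTGG, part of the D arm of many tRNAs, was found on the site's strand in 6 intron-class sites, 1 non-coding-class site and 10 of all 2050 sites (0.488%). Without these matches the intron class differed from the 3′UTR and exon classes by -43.8 points in the RNase T1 type (-50.8 to -35.8, Fisher's exact test, adjusted p = 5.29e-25). Its C plus A then differed from the windows by 3.16 points (-0.02 to 6.33). Intron-class sites at 3 edits, 23 of 161 against 14 for the reverse complements, were kept in these values. Whether reads of these abundant RNAs contributed to the sites was not tested. RNA of other organisms was not searched, so that for G-rich intron-class sites without RNase T1 ends a source outside the human genome was not tested either, and the RNase T1, inner G and C plus A values of the class include them.

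Of the 164 intron-class sites, 3 were over 300 nt wide and took their class from a midpoint far from their ends. The MED13L site spanned 5790 nt (chr12:115997228-116003017, minus strand), but without the intron it was an 18-nt stretch of coding exons with 15 nt in the first exon and 3 nt in the next, namely
MED13L across the exon junction: ttccttatccaccaacaG
The MTMR1 site spanned 5673 nt and gave 19 nt over an exon junction, 5 nt in the first and 14 nt in the second exon. The SPATS2L site spanned 43746 nt from a coding exon to a small RNA pseudogene, RNY4P34, and no annotated junction joined its ends. These 3 sites were left out wherever a sequence was used. MTMR1 also had a 28-nt intron-class site that GENCODE places in a 3′UTR.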

How the data were processed

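Per the labels and the study's methods, the authors used cutadapt 1.4.1 for trimming and PARA-suite for alignment to GRCh38 and an Ensembl transcriptome, called stranded clusters with BMix on both replicates pooled, and named classes with HOMER on hg38. The deposited list holds only positions, strands, cluster names and classes; it has no count, signal or score. Members and lists were chosen with earlier results of these data known. The first base was the listed start and the last the base before the listed end, since 87.6% of last bases so taken were G and 21.7% of bases at the listed end were.

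Each midpoint was placed in GENCODE 44 (hg38), preferring mRNA exons, then other exons, then introns. Identical copies were searched over the whole genome, near copies with blastn 2.17.0 in GENCODE transcripts, and stable RNAs with edlib. Shares have Wilson intervals and differences Newcombe intervals; Fisher's and McNemar's exact tests used scipy 1.17.1 with Benjamini-Hochberg adjustment. The tetramer code was tested on simulated data. Genes named had 2 or more members, were noncoding, lay nearest to or farthest from a splice site, led an annotation group or were on a list; others were chosen after their values were seen. Sites of 1 gene are not independent. Alternatives were other overlap rules, transcripts, windows and subsets of sites.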

Additional observations from a re-analysis of the deposited data

How the results depend on the processing

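Over 20 results, 90 of 111 alternative values kept their direction and their side of the threshold or stayed within the interval; restrictions to the RNase T1 type and all alternatives for differences were chosen after seeing the data. Causes of the changes below were not tested. The share of intron-class sites in an own-strand exon was 15.9% with basic transcripts only and 36.6% with strand ignored. C plus A of intron-class sites minus windows was 8.51 points for sites wider than the median, 14.6 for the RNase T1 type, -2.38 for all other sites and -0.72 for sites in no annotated exon. These windows lay 100 nt away and were not matched for G, so that the split by RNase T1 type partly sets these values. Against windows cut as RNase T1 cuts, the RNase T1 type gave 9.61 points (3.80 to 15.4, 30 pairs). Intron-class tetramers passing the test numbered 6 with windows 300 nt away, 1 with windows cut as RNase T1 cuts and 1 for the RNase T1 type. For the RNase T1 type alone, a gene lay on the own strand of 88.9% of intron-class and 100% of non-coding-class sites, 88.0% of the latter lay in mRNA exons, and 0% of intron-class sequences were repeated (1.56% for wider sites). For sites wider than the median, differences were -15.9 points (RNase T1 type between the classes), 12.9 points (RNase T1 type by strand), 2.96 points (stable RNA, intron class), these 3 no longer past the threshold, and 9.10 points (repeated sequences, non-coding class, now past the threshold). With sequences that occur once, the RNase T1 difference by strand was 20.4 points, also no longer past it. With 1 site per gene, the differences in repeated sequences were 1.63 points between the classes and -2.08 points for the non-coding class. No paired analysis was possible because both replicates were pooled into 1 list. The list gives no depth, so no site's reproducibility could be assessed.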
